A study of Bos taurus with 9 samples.

Results

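The genes described here code for ATP-dependent chromatin remodelers and their subunits, in cattle embryos made by somatic cell nuclear transfer (the nucleus of a body cell placed into an egg stripped of its own chromosomes). They were chosen by symbol: the SMARC, ARID1 to ARID5, CHD1 to CHD9, INO80 and ACTL6 names, with BRD7, BRD8, BRD9 and PBRM1. The rule found 44 of the 17258 annotated genes listed in any file, and all 44 had a value in all 9 libraries. Of these, 17 are catalytic subunits of the SNF2 type and most of the others are partners of such an enzyme. The 7 members named ARID3, ARID4 or ARID5 share only a DNA-binding domain with ARID1 and ARID2. They are not subunits of a remodeler, so the name of the set does not hold for them, and they are described apart.

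All embryos were nuclear transfer embryos of Bos taurus, with fetal fibroblasts of a single Holstein fetus as donors and oocytes from abattoir ovaries. KDM6A morulae came from embryos injected 1 h after activation with mRNA for wild-type bovine KDM6A, a demethylase that acts on lysine 27 of histone H3. Control morulae were not injected. The labels name no mock injection, so the injection and its cargo cannot be told apart. Both kinds of morula were collected on day 5 in pools of 5, with 3 libraries each, and 3 libraries of 8-cell embryos are credited by the labels to an earlier series. Stage and source series therefore cannot be told apart. Whether the 3 pools of a group were made on separate days or from separate oocyte collections is not in the labels. The p-values cover only the spread between these samples, and that spread may be technical. In whole embryos, fewer cells of a type and less RNA per cell cannot be told apart.

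Remodelers use the energy of ATP to slide, evict, space or exchange nucleosomes, and so set which stretches of DNA other proteins can reach. The SWI/SNF complexes (BAF and PBAF) open chromatin around SMARCA4 or SMARCA2, the ISWI enzymes space nucleosomes around SMARCA5 or SMARCA1, the CHD family includes the motor of the NuRD deacetylase complex, and INO80 removes and exchanges the histone variant H2A.Z. In the mouse, SMARCA4 stored in the egg is needed for the embryo to switch on its genome, and SMARCA5 and CHD4 are needed around the time of implantation. In cattle the main wave of genome activation falls around the 8-cell stage.

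Values are FPKM, sequenced fragments divided by transcript length and by the size of the library, which allows levels of different genes to be compared. Sequencing depth is unknown. Summed FPKM over all rows of a library ran from 820346 to 1022423. The highest sum was that of control replicate 1 and includes its 3038 unannotated rows. Per library, 8923 to 9757 annotated genes reached 1 FPKM. KDM6A itself stood at 35.65, 87.58 and 79.44 FPKM in KDM6A morulae, against 10.72, 13.86 and 10.74 in controls. KDM6A morula replicate 1, with the lowest of the 3 values, correlated with the controls at 0.982 to 0.983 over all genes (log2 scale) and with the other KDM6A libraries at 0.975 and 0.970. The counts of calls, and the differences named between KDM6A and control morulae, are therefore also given without it. Summed FPKM of 10 donor fibroblast markers was 17.4, 70.0 and 21.8 in the 8-cell libraries, so replicate 2 stood apart, and 10.8 to 33.1 in morulae. The 7 cumulus and granulosa markers found summed to 15.3 to 26.0 in 8-cell embryos and 2.76 to 6.05 in morulae, with PTX3 and CYP11A1 listed at 0 in all 8-cell libraries. The 10 oocyte and maternal markers found summed to 3835, 9138 and 6280 in 8-cell embryos. In morulae they summed to 489, 22.6 and 119 in controls and to 114 to 196 in KDM6A morulae, so control replicate 1 held the most. The 8 epithelial and pluripotency markers summed to 91.4 to 178 in 8-cell embryos and 793 to 1257 in morulae. CLDN6 made up the largest part in morulae (502 to 796). NANOG went the other way, at 59.0 to 107 in 8-cell embryos and 40.1 to 44.2 in controls, with 32.3 to 67.9 in KDM6A morulae. The other markers of this list were higher in every morula library than in any 8-cell library.

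The remodeler genes were a small but broadly present class of transcripts. Their share of summed FPKM over annotated genes was 0.0831%, 0.0941% and 0.1045% in 8-cell embryos. It was 0.0617%, 0.0677% and 0.0625% in control morulae, and 0.0627%, 0.0734% and 0.0722% in KDM6A morulae. The 8-cell libraries were all above the 6 morula libraries. Of the 44 members, 27 stood at 1 FPKM or more in every library. A further 7 stayed under 1 FPKM in all 9: the ISWI motor SMARCA1, the muscle-type subunit SMARCD3, the neuronal subunit ACTL6B, the NuRD motors CHD3 and CHD5, and the DNA-binding factors ARID3A and ARID3C. The median member stood at 4.09 to 5.67 FPKM per library, against 1.41 to 2.27 for all annotated genes.

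SMARCA5, the ISWI motor, had the highest mean of the set in all 3 groups, and the highest level in every library but KDM6A replicate 1 (83.14 FPKM, with ACTL6A at 89.04). In 8-cell embryos it was followed by BRD8, a subunit of the TIP60 complex (83.3 FPKM), the actin-like SWI/SNF and INO80 subunit ACTL6A (62.1), ARID4A (52.0), the BAF core subunit SMARCE1 (49.1) and the PBAF subunit BRD7 (48.0). The range of BRD8 overlapped that of ACTL6A, and the ranges of ACTL6A, ARID4A, SMARCE1 and BRD7 overlapped one another, so this order is within the spread. In control morulae the order was SMARCA5 (108), ACTL6A (73.6), SMARCE1 (64.0), BRD8 (63.6), BRD7 (44.5), the NuRD motor CHD4 (44.4) and SMARCAD1 (23.6). BRD8 overlapped with ACTL6A and with SMARCE1, as did BRD7 with CHD4. ARID4A had left the top of the list and CHD4 had entered it.

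**Figure D1:**
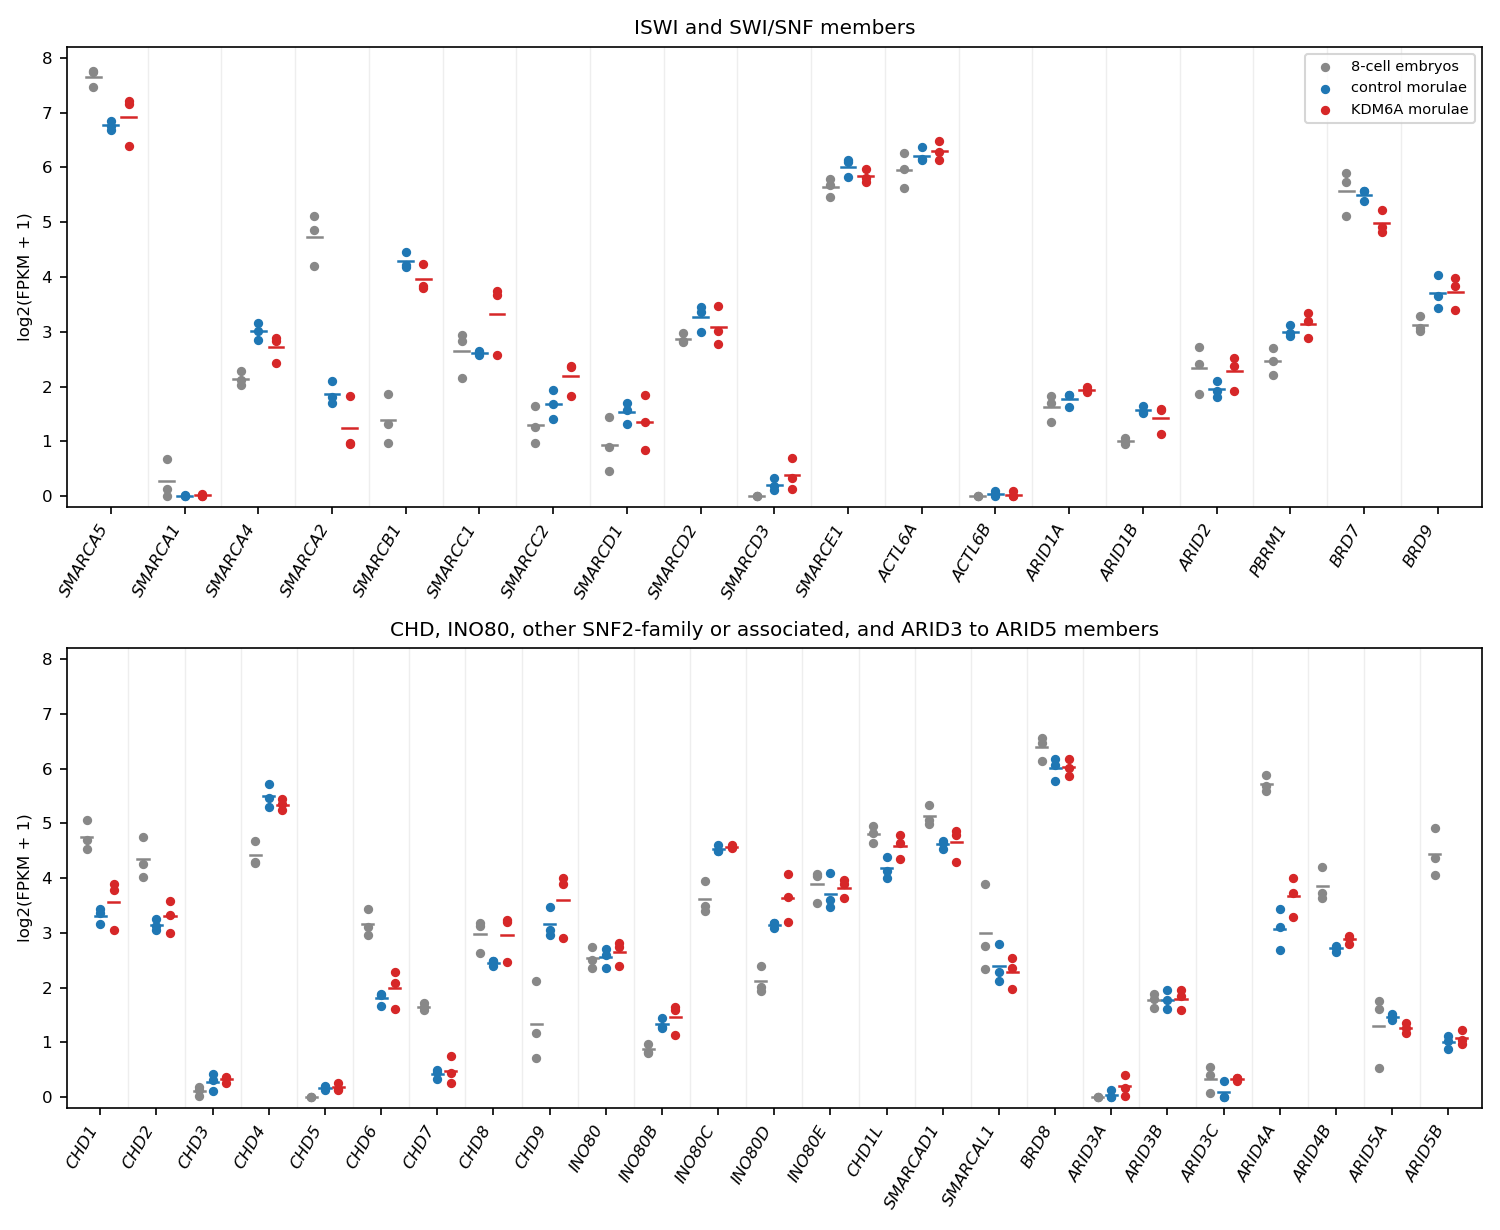
Level of each remodeler gene on a log2(FPKM + 1) axis, 1 point per library, with 8-cell, control morula and KDM6A morula libraries in separate colours. SMARCA5 lies highest in 8-cell embryos and controls, and the 7 genes under 1 FPKM in all 9 libraries lie at the low end.

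Between the 8-cell and the morula stage the set was re-balanced, with changes in both directions. Of 37 members tested in control morulae against 8-cell embryos, 7 were higher and 11 lower by limma (adjusted p under 0.05 over all genes tested). That is 48.6% of the tested members, against 69.8% of all 10048 genes tested. By direction, 18.9% of members were higher against 42.7% of genes, and 29.7% were lower against 27.1%. The median log2 difference was 0.0066 over the members and 0.35 over all genes, and 19 of 37 members lay above 0 against 58.9% of genes. The groups did not overlap for 24 members, 12 in each direction, against 74.5% of genes (45.4% above the 8-cell range and 29.1% below it). The split of calls depends on the scaling: after quantile normalization, which moved the all-gene median to 0.069, 5 members were higher and 14 lower, against 36.1% and 33.2% of genes. Median-of-ratios scaling gave 6 higher and 13 lower, against 36.7% and 32.5% of genes. Among the 14 catalytic subunits tested, 3 were higher (CHD9, CHD4, SMARCA4) and 8 lower, against 42.7% and 27.1% of genes. CHD7 (among the lower members) and INO80B (above the 8-cell range) passed the filter on low values through a single group. Both remain in the counts and shares above, and the shares over all genes used the same filter.

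**Figure D2:**
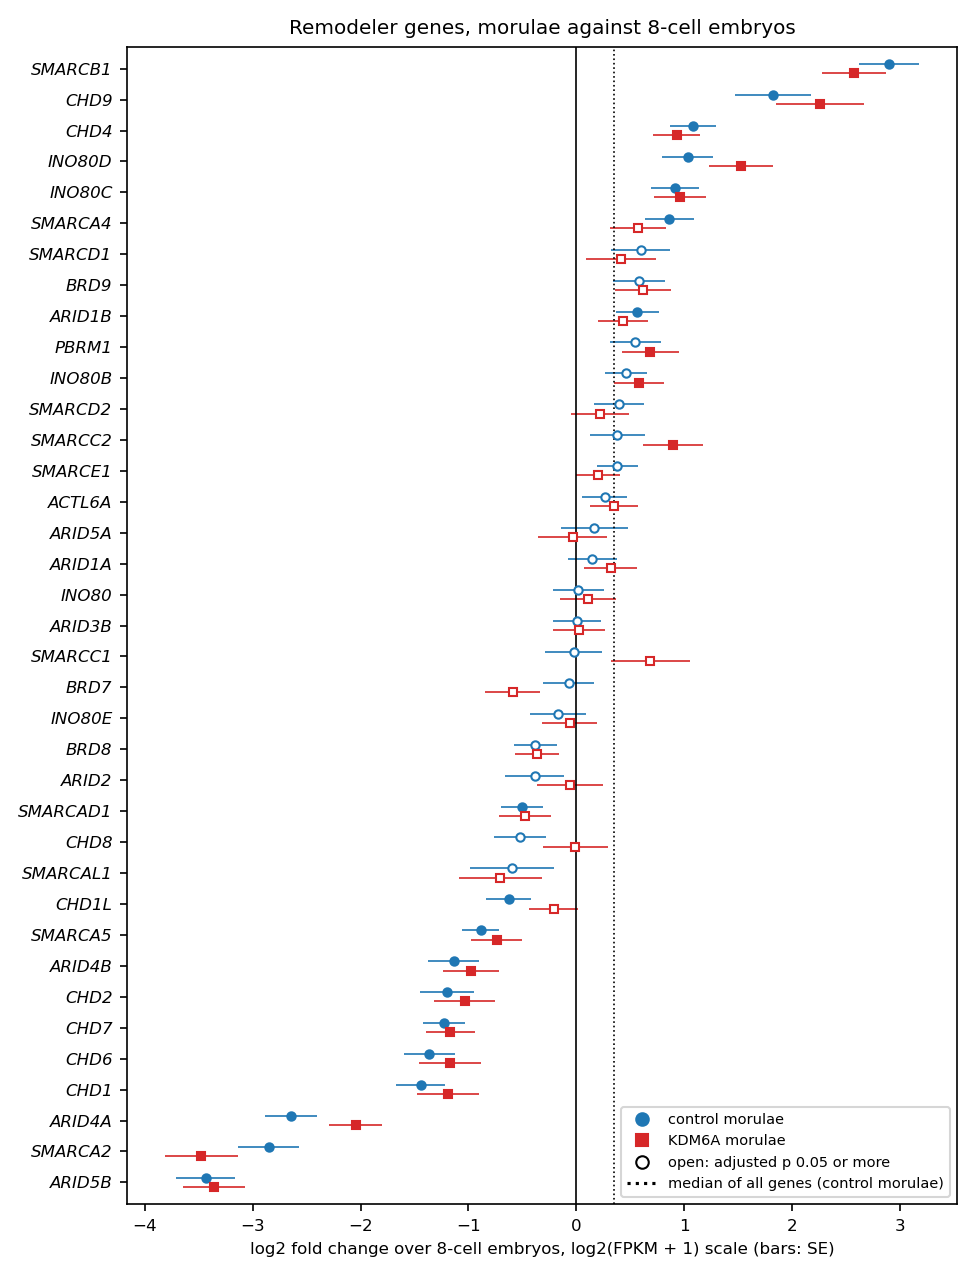
Difference in log2(FPKM + 1) from 8-cell embryos for the 37 tested remodeler genes, with standard errors. Circles show control morulae and squares KDM6A morulae, in separate colours. Filled points passed the limma test (adjusted p under 0.05) and open points did not. Among the control morula points, SMARCB1 lies farthest to the right at 2.90 and ARID5B farthest to the left at -3.44.

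SMARCA5 was the most abundant member and was lower in morulae. It stood at 176.15, 215.42 and 213.84 FPKM in 8-cell embryos and at 107.87, 102.15 and 114.95 in control morulae. No morula control reached the lowest 8-cell library, and the mean was 1.86-fold lower (201.8 ± 22.2 against 108 ± 6.41, SD, n = 3 each). The log2 difference was -0.89 (SE 0.17, limma adjusted p 0.00115). Its sister gene SMARCA1 was nearly undetected, at 0.10, 0.60 and 0 FPKM in 8-cell embryos and 0.02, 0 and 0 in controls. In all 3 groups nearly all ISWI motor transcript was thus from SMARCA5.

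The pair of SWI/SNF motors exchanged rank. SMARCA2 (BRM) stood at 17.35, 33.70 and 27.97 FPKM in 8-cell embryos and at 2.50, 2.25 and 3.30 in control morulae. The groups lay far apart, with a mean 9.82-fold lower in morulae and a log2 difference of -2.85 (SE 0.28, limma adjusted p 2.04e-05). SMARCA2 was highest in 8-cell replicate 2, the library with the most fibroblast marker transcript. Without that library the difference was -2.66, so it does not rest on it.

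SMARCA4 (BRG1), the alternative motor of the same complexes, moved the other way. It stood at 3.33, 3.1 and 3.88 FPKM in 8-cell embryos and at 6.21, 7.98 and 7.06 in controls, again without overlap. The mean was 2.06-fold higher in morulae (log2 difference 0.86, SE 0.23, limma adjusted p 0.00694). This call is tied to scaling, since after quantile normalization the difference was 0.49 with an adjusted p of 0.0788. The balance of both motors can be read within each library. Log2 of (SMARCA4 + 1) over (SMARCA2 + 1) was -2.08, -3.08 and -2.57 in 8-cell embryos, and 1.04, 1.47 and 0.91 in controls. SMARCA2 was in excess in each 8-cell library and SMARCA4 in each control library. As a ratio of mean FPKM, SMARCA4 over SMARCA2 went from 0.1305 to 2.64. The balance differed by 3.72 log2 units, and by 3.63 after quantile normalization. The exact two-sided permutation p was 0.1, the smallest that 3 against 3 allows, and 0.18 adjusted over the 9 pairs of subunits compared.

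**Figure D3:**
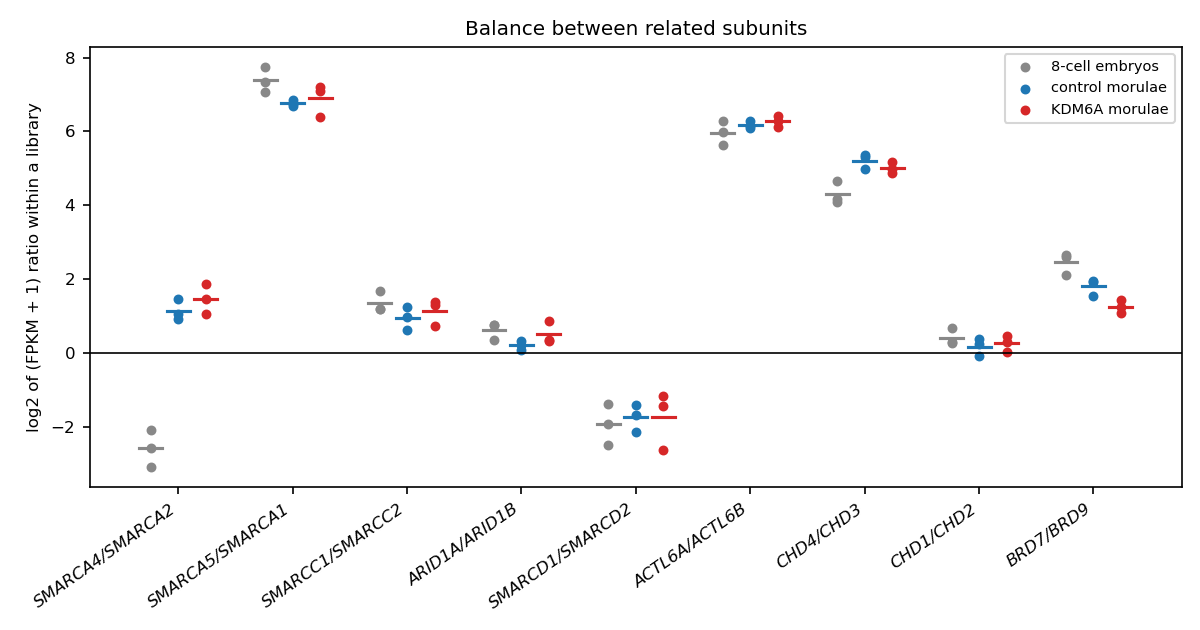
Balance of 9 pairs of alternative subunits, as log2 of (FPKM + 1) of the first gene over the second, with 1 point per library in each group. SMARCA4/SMARCA2 lies below 0 in the 3 8-cell libraries and above 0 in all 6 morula libraries.

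Another 4 of the 9 pairs also had groups without overlap between the stages (exact permutation p 0.1 and adjusted p 0.18 for each). The difference, morula controls minus 8-cell embryos, was 0.91 log2 units for CHD4/CHD3, with CHD3 at 0.34 FPKM or less throughout. As a ratio of mean FPKM this pair went the other way, from 245.8 to 201.8, so its direction depends on the pseudocount. The difference was -0.65 for BRD7, which marks PBAF, over BRD9, which marks the non-canonical BAF complex. It was -0.42 for ARID1A/ARID1B and -0.62 for SMARCA5/SMARCA1. The last value turns to 0.29 with a pseudocount of 0.1, since SMARCA1 is close to 0. The pairs SMARCC1/SMARCC2, SMARCD1/SMARCD2, ACTL6A/ACTL6B and CHD1/CHD2 had p of 0.3 to 0.7.

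Among the core SWI/SNF subunits, SMARCB1 alone passed the test out of 7 tested, against 69.8% of genes in either direction. SMARCB1 (SNF5), which contacts the nucleosome and is a tumour suppressor, stood at 2.64, 0.95 and 1.5 FPKM in 8-cell embryos and at 17.12, 21.00 and 17.55 in control morulae. It was 10.9-fold higher in morulae (1.70 ± 0.862 against 18.6 ± 2.13, SD, n = 3), with a log2 difference of 2.90 (SE 0.28, limma adjusted p 1.69e-05). The other core subunits did not pass. All but SMARCC1 had a positive difference, as did 58.9% of genes. Relative to the all-gene median of 0.35, the differences were 0.25 (SMARCD1), 0.05 (SMARCD2), 0.03 (SMARCC2 and SMARCE1) and -0.09 (ACTL6A). SMARCE1 had means of 49.1 and 64.0 FPKM without overlap of the groups (log2 difference 0.38, adjusted p 0.10). SMARCD1 gave 0.59 (limma adjusted p 0.0756), SMARCD2 0.40 (0.151, also without overlap) and SMARCC2 0.38 (0.206). ACTL6A gave 0.26 (adjusted p 0.288, and -0.014 after median-of-ratios scaling) and the scaffold SMARCC1 -0.03 (adjusted p 0.937), with overlapping groups for both. SMARCC1 stood at 3.46, 6.66 and 6.12 FPKM in 8-cell embryos and 5.25, 4.95 and 5.20 in controls. Its paralog SMARCC2 stood at 0.97, 1.40 and 2.12, then 2.2, 2.84 and 1.64. In 8-cell embryos the mean SMARCB1 level was below that of SMARCC1, SMARCE1 and ACTL6A, and in controls it was above SMARCC1.

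Of the 6 subunits that define BAF or PBAF variants, 1 passed the test, against 69.8% of genes in either direction. ARID1B, the alternative to ARID1A in BAF, stood at 0.93, 0.99 and 1.09 FPKM in 8-cell embryos and 1.89, 2.13 and 1.88 in controls (log2 difference 0.57, limma adjusted p 0.0258). That call was lost in 8 alternatives: the 3 scalings (adjusted p up to 0.236), the replicate block (0.0575), and without 8-cell replicate 1 or any 1 of the controls (up to 0.0583). ARID1A stood at 2.26, 1.54 and 2.54 FPKM against 2.60, 2.61 and 2.07, a log2 difference of 0.15 that turned to -0.20 after quantile normalization. BRD7 stood at 33.52, 58.55 and 51.98 FPKM against 40.74, 46.29 and 46.45 (log2 difference -0.07, adjusted p 0.794), and the groups overlapped. BRD9 stood at 7.05, 8.79 and 7.37 against 9.78, 15.36 and 11.52, without overlap and without passing the test. PBRM1, the bromodomain subunit of PBAF, ran from 3.64 to 5.50 FPKM in 8-cell embryos and from 6.58 to 7.67 in controls, also without overlap or a call. ARID2, the DNA-binding subunit of PBAF, overlapped (2.62 to 5.63 against 2.52 to 3.29). Of the alternative subunits SMARCD1 and SMARCD2, the second was the more abundant in every library. SMARCD1 stood at 0.86, 1.72 and 0.38 FPKM, then 1.99, 1.49 and 2.23. SMARCD2 stood at 6.13, 6.05 and 6.83, then 6.99, 9.94 and 9.27.

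The CHD family divided. CHD4, the NuRD motor, stood at 18.54, 18.35 and 24.54 FPKM in 8-cell embryos and at 38.26, 51.89 and 43.06 in control morulae, without overlap. It was 2.17-fold higher in morulae (log2 difference 1.08, SE 0.21, limma adjusted p 0.00128). CHD9, a large and less studied member of the CHD6 to CHD9 branch, stood at 1.26, 0.65 and 3.34 FPKM and then at 10.16, 7.27 and 6.76. Its mean was 4.61-fold higher (log2 difference 1.82, SE 0.35, adjusted p 0.00117). Every control was above every 8-cell library, although the 8-cell values spread over a wide range.

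The nucleosome-spacing enzymes CHD1 and CHD2 were lower in morulae. CHD1, which binds the H3K4 methyl mark of active genes, stood at 24.76, 22.00 and 32.42 FPKM in 8-cell embryos and 9.81, 7.89 and 9.26 in controls. The mean was 2.94-fold lower (log2 difference -1.44, SE 0.23, limma adjusted p 0.000319). CHD2 stood at 15.19, 18.11 and 25.97 and then at 7.30, 8.5 and 7.74, a 2.52-fold lower mean (log2 difference -1.20, SE 0.25, adjusted p 0.00164). CHD1 and CHD2 were therefore lower together, and their balance did not separate the stages.

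Of the CHD6 to CHD9 branch, CHD6 and CHD7 went against CHD9. CHD6 stood at 9.87, 7.56 and 6.77 FPKM in 8-cell embryos and 2.15, 2.71 and 2.64 in controls, 3.23-fold lower (log2 difference -1.36, SE 0.24, limma adjusted p 0.000629). CHD7, the gene mutated in CHARGE syndrome, stood at 2.30, 2.11 and 2.02 and then at 0.25, 0.41 and 0.37. It passed the filter on low values through the 8-cell libraries alone, so its call (log2 difference -1.23, adjusted p 0.000292) is not counted as support. CHD8, a repressor of Wnt target genes, stood at 8.03, 7.73 and 5.20 against 4.62, 4.59 and 4.26 FPKM. The groups did not overlap, and the adjusted p was 0.0795 (log2 difference -0.52). After TPM, quantile and median-of-ratios scaling it became a lower call, with adjusted p of 0.0339, 0.00888 and 0.0200, as it did without 8-cell replicate 3 (0.0265). CHD3 stood at 0.09, 0.14 and 0.02 FPKM and then at 0.24, 0.34 and 0.08. CHD5 was listed at 0 in the 8-cell libraries and at 0.09 to 0.15 in controls, and neither was tested.

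In the INO80 complex the motor and its accessory subunits differed. INO80 itself stood at 4.15, 4.65 and 5.71 FPKM in 8-cell embryos and 5.53, 4.15 and 5.04 in controls, with overlap. Its log2 difference of 0.02 turned negative under TPM, quantile and median-of-ratios scaling (-0.14, -0.34 and -0.21). INO80C stood at 9.58, 10.25 and 14.43 and then at 23.35, 21.52 and 21.46 (log2 difference 0.92, SE 0.22, limma adjusted p 0.0045). INO80D stood at 2.84, 3.03 and 4.25 and then at 7.46, 8.07 and 8.07 (log2 difference 1.03, SE 0.24, adjusted p 0.00295). For INO80C and INO80D every control lay above the 8-cell range. INO80B stood at 0.96, 0.75 and 0.78 FPKM and then at 1.73, 1.39 and 1.42, and it passed the filter through the controls alone. INO80E ran from 10.60 to 15.88 FPKM in 8-cell embryos and from 10.07 to 15.96 in controls.

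The remaining SNF2 enzymes are tied to DNA repair and replication. CHD1L (ALC1), which is activated by poly(ADP-ribose) at DNA breaks, stood at 29.97, 27.14 and 23.92 FPKM in 8-cell embryos and 16.59, 19.97 and 14.99 in controls (log2 difference -0.63, SE 0.21, limma adjusted p 0.0217). This call was lost without 8-cell replicate 1 (adjusted p 0.0535), control replicate 1 (0.0560) or control replicate 3 (0.103). SMARCAD1, which restores silent chromatin behind the replication fork, stood at 32.25, 30.70 and 39.43 and then at 23.91, 24.67 and 22.24 (log2 difference -0.51, SE 0.20, adjusted p 0.0402). Its call was lost without 8-cell replicate 3 (0.118), without any 1 of the controls (0.0718 to 0.138) and with the replicate block (0.0616). SMARCAL1, which remodels stalled forks, ran from 4.03 to 13.87 FPKM in 8-cell embryos and from 3.35 to 5.95 in controls. BRD8 stood at 69.48, 92.90 and 87.44 against 53.99, 71.34 and 65.59 and overlapped. It did not pass as deposited, but passed as lower under TPM, quantile and median-of-ratios scaling (adjusted p 0.0335, 0.0439 and 0.0173) and without 8-cell replicate 1 (0.0464).

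The ARID3 to ARID5 genes held the largest fall among the members. ARID5B, a DNA-binding partner of the histone demethylase PHF2, stood at 19.53, 15.54 and 29.11 FPKM in 8-cell embryos and at 1.17, 1.03 and 0.83 in control morulae. It was 21.2-fold lower (log2 difference -3.44, SE 0.27, limma adjusted p 6.36e-06). ARID4A, an RB-binding subunit of the SIN3 deacetylase complex, stood at 50.55, 47.32 and 58.06 and then at 9.81, 5.43 and 7.66. It was 6.81-fold lower (log2 difference -2.64, SE 0.24, adjusted p 1.27e-05). Its order among the 3 controls is also that of the summed maternal markers (489, 22.6 and 119), as is that of CHD1. The other members called lower did not have this order among the controls, SMARCA2, SMARCA5 and ARID5B among them. Among the 8-cell libraries SMARCA2 and SMARCA5, alone of the members called lower, followed the order of the maternal sums (3835, 9138 and 6280). The fibroblast sums had that order too (17.4, 70.0 and 21.8). BTG4 alone made up 3360, 8658 and 5716 FPKM of those maternal sums. The part of maternal or fibroblast transcript in these results was not tested. Without control replicate 1 the ARID4A difference was -2.82. The related ARID4B stood at 12.19, 17.41 and 11.43 and then at 5.26, 5.64 and 5.80 (log2 difference -1.14, adjusted p 0.00183). ARID3B and ARID5A, at 0.45 to 2.88 FPKM in both stages, did not pass the test. So 3 of the 11 lower calls came from genes that are not remodeler subunits.

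KDM6A morulae were also set against the 8-cell libraries, which this comparison shares with the one above. Of 37 members tested by limma, 8 were higher and 9 lower, or 45.9%, against 66.7% of 10024 genes (41.1% higher and 25.6% lower). After quantile normalization the counts were 5 and 12, against 34.3% and 31.5% of genes, and after median-of-ratios scaling 6 and 12, against 35.5% and 30.7%. Higher were SMARCB1 (log2 difference 2.57), CHD9 (2.26), INO80D (1.53), INO80C (0.96), CHD4 (0.93), SMARCC2 (0.90), the PBAF subunit PBRM1 (0.69) and INO80B (0.58). Lower were SMARCA2 (-3.48, 17.8-fold), ARID5B (-3.36), ARID4A (-2.04), CHD1 (-1.19), CHD6 (-1.17), CHD7 (-1.17), CHD2 (-1.04), ARID4B (-0.97) and SMARCA5 (-0.74). INO80B passed the filter through the KDM6A libraries alone and CHD7 through the 8-cell libraries alone. Neither call is taken as support, although both remain in the 8 higher and 9 lower. Without KDM6A replicate 1, 8 members were higher and 8 lower, against 37.9% and 23.6% of genes. Some of these calls were fragile. SMARCA5 lost its call without KDM6A replicate 1 (adjusted p 0.0565), without 8-cell replicate 3 (0.0572) and without the filter (0.0584). SMARCC2 lost it with quantile normalization (0.127) and without 8-cell replicate 1 or KDM6A replicate 2 or 3 (0.0502 to 0.0592). PBRM1 lost it under the 3 scalings (0.0745 to 0.285), with the replicate block (0.0586) and without 8-cell replicate 2 or 3 or KDM6A replicate 2 or 3 (0.0669 to 0.165). INO80B lost it in 10 alternatives, with adjusted p up to 0.258. SMARCC1 did not pass (log2 difference 0.69, adjusted p 0.117), but did without KDM6A replicate 1 (1.06, adjusted p 0.0195) and with the replicate block (0.0483). SMARCA4 had a log2 difference of 0.57 and an adjusted p of 0.0732 (0.0383 with all 9 libraries in 1 fit), with every KDM6A library above the 8-cell range.

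The third comparison sets KDM6A morulae against uninjected control morulae of the same stage. By limma no member of 36 tested passed (0 higher, 0 lower), while 0.164% of the 9777 genes tested did (16 genes, 0.123% higher and 0.0409% lower). At an unadjusted p under 0.05 there were 4 members, SMARCC1 and ARID4A higher and BRD7 and SMARCA2 lower, against 12.7% of genes. Without KDM6A replicate 1 there were 10 higher and 3 lower, against 24.3% of genes. The median log2 difference was 0.088 over the members and -0.012 over all genes, and 25 of 36 members lay above 0 against 48.6% of genes. Without replicate 1 the medians were 0.11 and -0.04, with 23 members above 0 against 46.0% of genes. The groups did not overlap for 5 members of 36, against 15.7% of genes. ARID1A, ARID4B and INO80D lay above the controls, as did 7.1% of genes, and BRD7 and ARID5A below, as did 8.61%. Without replicate 1, 17 members lay above the controls and 6 below, against 18.7% and 23.2% of genes.

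BRD7, the PBAF subunit and p53 cofactor, had the smallest unadjusted p. It stood at 36.33, 29.02 and 27.39 FPKM in KDM6A morulae, all below the controls at 40.74, 46.29 and 46.45. The log2 difference was -0.52 (SE 0.18, limma adjusted p 0.298), and the balance of BRD7 over BRD9 within a library differed by -0.55 log2 units (exact permutation p 0.1, adjusted p 0.6 over 9 pairs). BRD9 stood at 14.72, 13.26 and 9.54 FPKM, overlapping the controls.

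SMARCC1 stood at 4.95, 12.32 and 11.77 FPKM in KDM6A morulae, against 5.25, 4.95 and 5.20 in controls. Replicate 1 was level with the controls and the other KDM6A libraries lay far above them, with a log2 difference of 0.71 over all 3 (SE 0.30, limma adjusted p 0.360). Its paralog SMARCC2 had the same shape at a lower level, with 2.57, 4.12 and 4.21 FPKM against 2.2, 2.84 and 1.64 (log2 difference 0.52, adjusted p 0.402). SMARCA2 stood at 2.54, 0.96 and 0.93 against 2.50, 2.25 and 3.30 (log2 difference -0.62, adjusted p 0.379). Here replicate 1 fell within the control range and the other KDM6A libraries below it. ARID4A stood at 8.83, 14.99 and 12.32 FPKM (log2 difference 0.60, adjusted p 0.372) and CHD1L at 19.44, 26.62 and 23.97 (0.42, adjusted p 0.409). In both, replicate 1 was inside the control range and the others above it. Without replicate 1 the differences were 0.79 for ARID4A (adjusted p 0.0815), 0.70 for SMARCC2 (0.101) and 0.54 for CHD1L (0.119).

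This division of the KDM6A libraries ran through much of the set. Replicate 1 lay outside the range of the 3 controls for 16 of 36 members (44.4%, against 48.0% of genes), replicate 2 for 28 (77.8%, against 61.7%) and replicate 3 for 30 (83.3%, against 64.3%). In a count chosen after the values were seen, replicates 2 and 3 lay outside the controls on 1 side with replicate 1 not on that side for 18 members. That was 50.0% of the members and 26.2% of genes. Of the 18, 14 lay above: 9 catalytic subunits (SMARCA5, CHD1, CHD1L, CHD2, CHD6, CHD8, CHD9, SMARCAD1, INO80), the SWI/SNF subunits SMARCC1, SMARCC2, ARID2 and PBRM1, and ARID4A. The 4 below were the SWI/SNF subunits SMARCA2, SMARCA4, SMARCB1 and SMARCE1. For SMARCA4 and SMARCE1, replicate 2 lay just below the lowest control (6.14 against 6.21 FPKM, and 55.25 against 55.65). Replicates 1 and 2 stood apart from replicate 3 in this way for 1 member (2.78%, against 8.03% of genes), and replicates 1 and 3 from replicate 2 for 0 (against 4.25%).

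**Figure D4:**
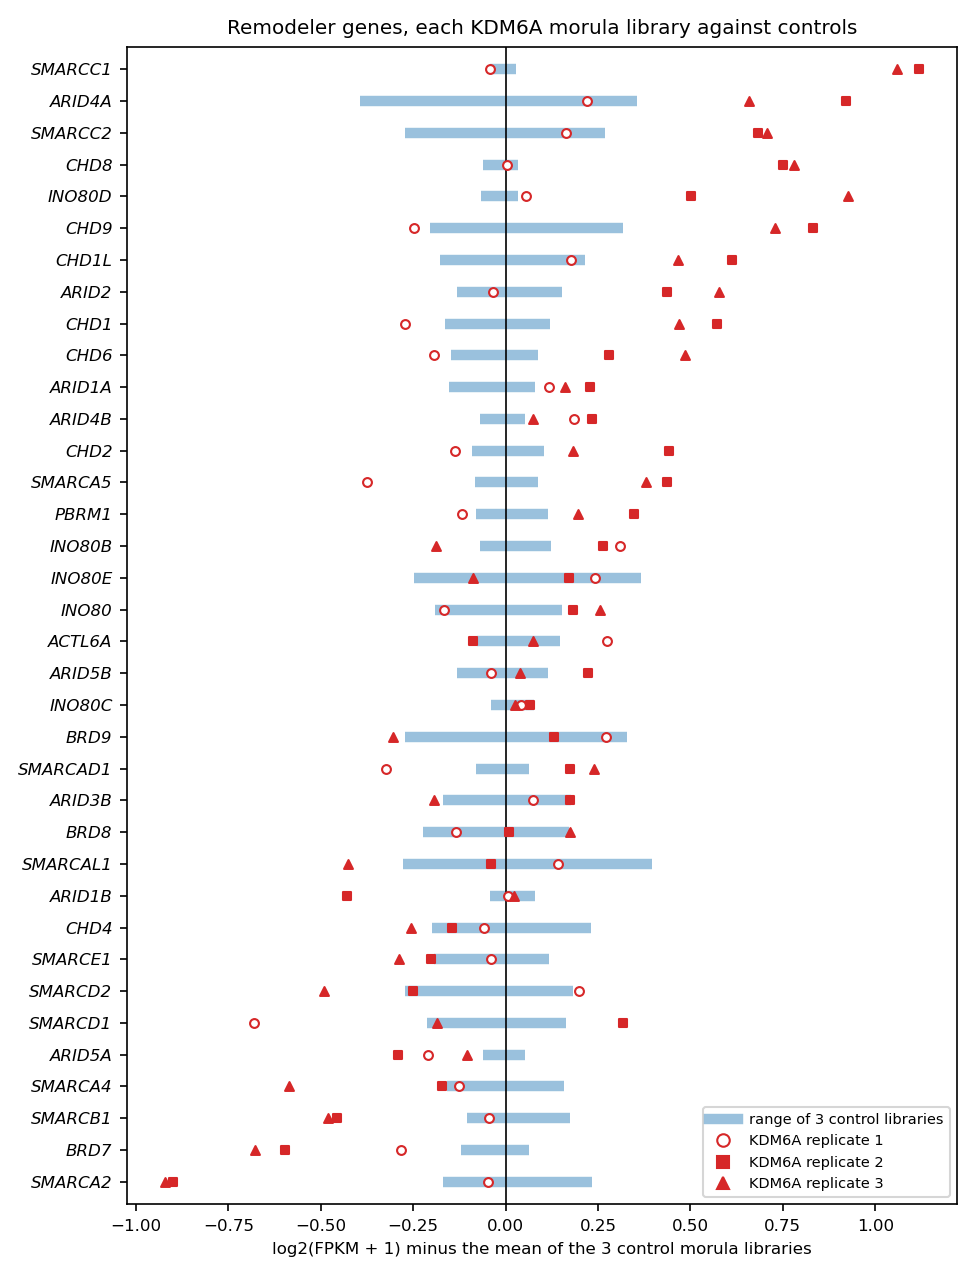
Difference in log2(FPKM + 1) of each KDM6A morula library from the mean of the 3 control morulae, for the 36 tested remodeler genes. Points of replicates 2 and 3 lie close together for most genes, while those of replicate 1 lie nearer to 0 for genes such as SMARCC1, CHD8 and CHD9.

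The catalytic subunits show the pattern in their values. SMARCA5 stood at 83.14, 146.76 and 141.17 FPKM in KDM6A morulae, so replicate 1 lay below and the others above the controls at 102.15 to 114.95. CHD9 stood at 6.53, 14.93 and 13.83 against 6.76 to 10.16, CHD8 at 4.50, 8.23 and 8.43 against 4.26 to 4.62, and CHD1 at 7.24, 13.80 and 12.78 against 7.89 to 9.81. In the opposite sense, SMARCA4 stood at 6.38, 6.14 and 4.36 against 6.21 to 7.98. SMARCB1 stood at 17.90, 13.21 and 12.95 against 17.12 to 21.00. Here too replicate 1 lay inside the control range for SMARCA4 and SMARCB1, with replicates 2 and 3 below. For SMARCA4, replicate 2 was below by a narrow margin (6.14 against 6.21). CHD4 stood at 42.28, 39.76 and 36.75, overlapping the controls. CHD2 stood at 7.03, 11.00 and 9.03, CHD6 at 2.05, 3.24 and 3.89, and CHD7 at 0.20, 0.35 and 0.69 FPKM. SMARCAD1 stood at 18.65, 26.73 and 28.02, INO80 at 4.24, 5.67 and 6.01, and SMARCAL1 at 4.82, 4.13 and 2.93. Of these 3, SMARCAL1 overlapped the controls without the division. INO80D stood at 8.2, 11.55 and 15.83 against 7.46 to 8.07, so here all KDM6A libraries lay above the controls, replicate 1 by the least. CHD3 at 0.20 to 0.29 FPKM, CHD5 at 0.10 to 0.19 and SMARCA1 at 0 to 0.03 stayed near 0.

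The remaining subunits of the pairs mostly overlapped the controls. SMARCD1 ran from 0.80 to 2.60 FPKM and SMARCD2 from 5.86 to 10.07, against 1.49 to 2.23 and 6.99 to 9.94. ACTL6A ran from 68.93 to 89.04 against 69.57 to 81.42, and its neuronal counterpart ACTL6B was at 0.06 or less. ARID1A stood at 2.71, 3.00 and 2.82 against 2.07 to 2.61, a separation of the groups by a narrow margin, and ARID1B at 1.98, 1.2 and 2.01 against 1.88 to 2.13.

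Without KDM6A replicate 1, 4 of 36 members passed by limma (11.1%, against 7.62% of genes). SMARCC1 was higher by 1.09 (SE 0.19, adjusted p 0.0125) and CHD8 by 0.77 (adjusted p 0.0452). SMARCA2 was lower, at -0.91 (adjusted p 0.0427), as was BRD7 at -0.64 (adjusted p 0.0496). These calls rest on 2 KDM6A libraries and on leaving out the library with the least KDM6A transcript, a choice made with the values known. That library also stood apart in its correlation over all genes. Because the calls come from leaving it out, their contrast with it is built in. BRD7 lay below every control in that library as well (36.33 FPKM, against 40.74 to 46.45). The part of the KDM6A dose or of the library in these members was not tested.

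The SWI/SNF motor balance in KDM6A morulae stayed on the SMARCA4 side. Log2 of (SMARCA4 + 1) over (SMARCA2 + 1) was 1.06, 1.87 and 1.47, against 0.91 to 1.47 in controls, and the groups overlapped. The ratio of mean FPKM was 3.81 in KDM6A morulae and 2.64 in controls. No pair other than BRD7/BRD9 had an exact permutation p below 0.2 in this comparison. Without replicate 1 the difference was 0.53 for SMARCA4/SMARCA2 and -0.55 for BRD7/BRD9, each with an exact permutation p of 0.2, the smallest that 2 against 3 allows.

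Genes of the same complexes whose symbols fall outside the rule were read from a list of 75, of which 71 were found in a single row. In control morulae against 8-cell embryos, 61 were tested by limma, 20 were higher (32.8%, against 42.7% of genes) and 15 lower (24.6%, against 27.1%). The median log2 difference was 0.14, and 0.35 over all genes. None of the 9 ISWI partners was higher, against 42.7% of genes. Of the 9, 4 were lower (44.4%, against 27.1% of genes): BAZ1A, CECR2, BPTF and RSF1. BAZ1A (ACF1), which directs SMARCA5 in nucleosome spacing, stood at 61.73, 58.58 and 67.24 FPKM in 8-cell embryos and 13.22, 8.71 and 9.74 in controls (log2 difference -2.48, SE 0.21, adjusted p 9.67e-06). CECR2 stood at 4.40, 7.44 and 4.23 and then at 0.57, 0.05 and 0.08 (log2 difference -2.35, adjusted p 4.89e-05). CECR2 passed the filter on low values through the 8-cell libraries alone. Its call is not taken as support, although it remains among the 4 lower partners (44.4%). SMARCA5 and BAZ1A were both lower in every control than in any 8-cell library.

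NuRD partners were split, with 4 of 11 higher (MTA3, HDAC1, CDK2AP1, HDAC2) and 5 lower (MBD2, GATAD2A, GATAD2B, MTA2, RBBP4). That is 36.4% and 45.5%, against 42.7% and 27.1% of genes. MTA3 stood at 12.70, 20.22 and 11.04 FPKM in 8-cell embryos and 51.13, 68.98 and 55.47 in controls (log2 difference 1.96, adjusted p 9.47e-05). The deacetylase HDAC1 stood at 42.82, 35.35 and 54.01 and then at 172.30, 177.09 and 140.89 (log2 difference 1.88, adjusted p 3.81e-05). Like CHD4, both were higher in every control. The methyl-DNA binding subunit MBD2 went the other way, at 35.33, 67.57 and 53.59 and then 12.45, 14.86 and 13.11 (log2 difference -1.83).

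Of 24 partners of INO80, SRCAP and TIP60, 10 were higher and 4 lower, or 41.7% and 16.7%, against 42.7% and 27.1% of genes. The share of higher calls was thus near that of all genes. The lower ones included the TIP60 reader ING3 (30.9 to 5.63 FPKM in mean, log2 difference -2.29) and the SRCAP subunit ACTR6 (160.8 to 36.5, -2.10). Of 4 tested SWI/SNF partners 2 were higher (50.0%), PHF10 of PBAF among them (2.43 to 10.6 FPKM, log2 difference 1.78). Among 13 other SNF2-family genes 4 were higher (30.8%) and 2 lower (15.4%). The recombination motor RAD54L went from 5.75 to 23.5 FPKM in mean (log2 difference 1.85) and HLTF, which acts at stalled forks, from 2.09 to 8.90 (1.70). Between KDM6A and control morulae, 0 of 61 partners passed. An unadjusted p under 0.05 was found for 9 (14.8%, against 12.7% of genes), and the median log2 difference was 0.058. Without KDM6A replicate 1, 2 of 61 were higher and 4 lower, while 7.62% of genes passed in either direction. In that setting 21 partners had an unadjusted p under 0.05, against 24.3% of genes. Against 8-cell embryos, 15 of 62 were higher (24.2%, against 41.1% of genes) and 17 lower (27.4%, against 25.6%) in KDM6A morulae. Without replicate 1 both counts were 14, against 37.9% of genes higher and 23.6% lower. SS18L1, among the higher, passed the filter on low values through the KDM6A libraries alone. CECR2, among the lower, passed it through the 8-cell libraries alone. Neither call is taken as support, although both remain in the 15 higher and 17 lower.

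**Figure D5:**
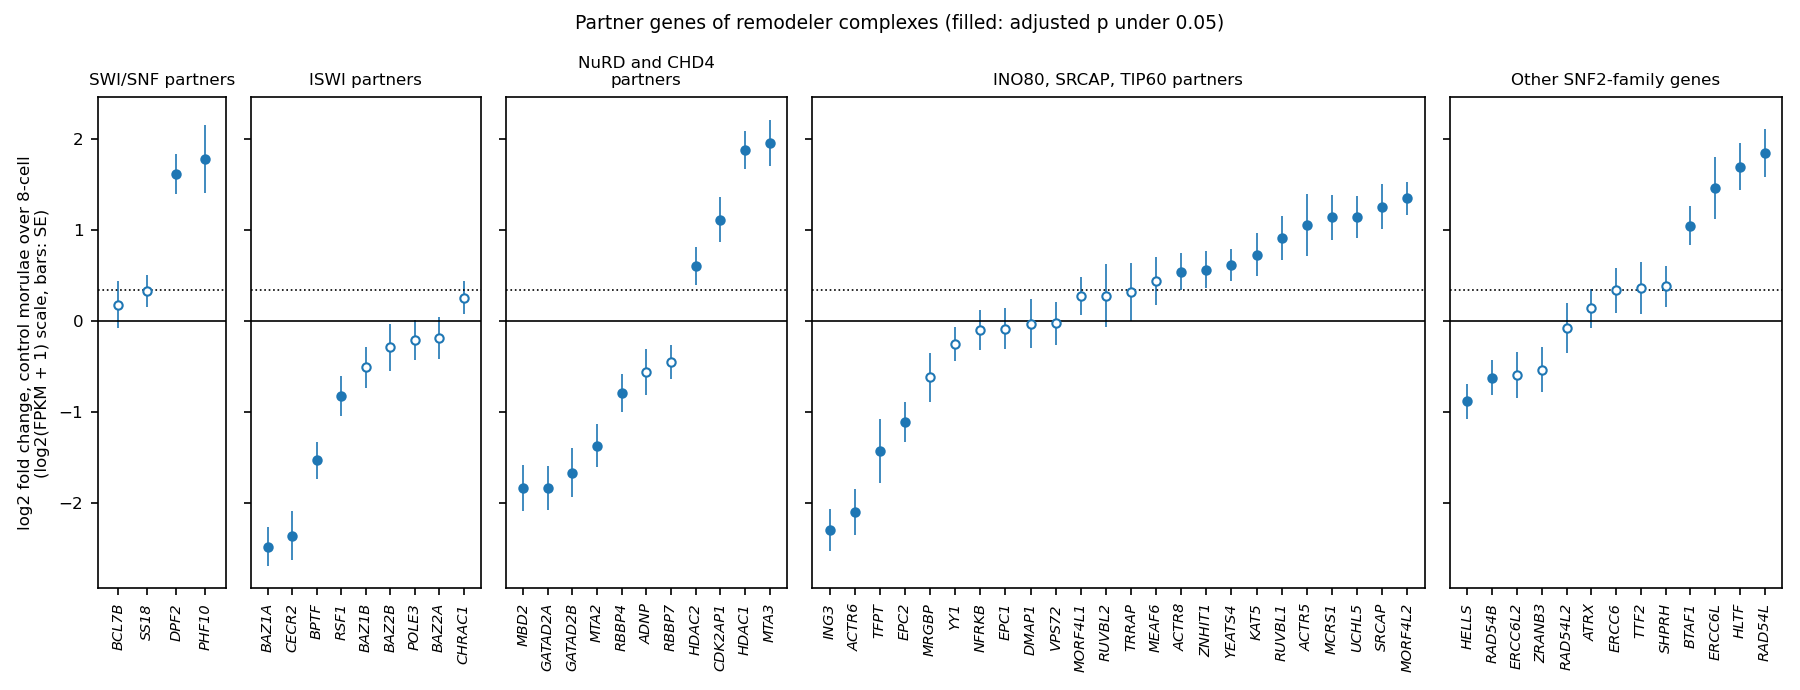
Difference in log2(FPKM + 1) between control morulae and 8-cell embryos for partner genes outside the symbol rule, by complex, 1 point per gene. BAZ1A lies lowest at -2.48 and MTA3 highest at 1.96.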

How the data were processed

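RNA sequencing gave 9 libraries in 3 groups of 3. The labels give paired ends of 150 bases for the 6 morula libraries. The deposited values are FPKM per gene, per the file headers, rounded by the authors. The build was UMD3.1, per the submitters' processing notes, which also name RSEM 1.2.12, StringTie 1.0.4, HISAT 0.1.6, Bowtie2 2.2.5 and bcl2fastq 2.16. The role of each, and the handling of reads shared between paralogs, was not given in the sources used here. Values of close paralogs (SMARCA4 and SMARCA2, CHD6 to CHD9) could share reads. Depth is unknown: ratios of low values between library pairs showed no steps of whole reads, with 3.92% to 9.01% of genes in the commonest log2 bin over 36 pairs.

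Symbols were joined across files by gene identifier. SMARCC1, CHD5 and BRD8 lacked a symbol in the 8-cell files, and INO80B and INO80C in the morula files. Unannotated rows of control replicate 1 (3038) were left out. Limma with a trended prior was fitted to log2(FPKM + 1) on the 6 libraries of each comparison, for genes that reached 1 FPKM in 3 or more of them. P-values were adjusted by Benjamini-Hochberg over all genes tested, with a threshold of 0.05. Differences are on the log2(FPKM + 1) scale, which understates changes of low genes, and folds are ratios of mean FPKM. Subunit pairs were compared by exact two-sided permutation tests. R 4.3.3 with limma 3.58.1 and Python 3.11.15 with pandas 2.3.3, numpy 2.4.6 and matplotlib 3.10.9 were used. On simulated data with 200 changed genes, limma recovered 94% (KDM6A against control), 84% (control against 8-cell) and 63% (KDM6A against 8-cell) of the genes with a change of 1 log2 unit. It recovered 100% at 2 log2 units in each, with 12, 9 and 6 false calls. The simulated noise was independent between libraries and alike in both groups, and genes of low level were given no change. These shares therefore do not apply to low members or to the division of the KDM6A libraries.

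The members, lists and tests were chosen with earlier results of these data known. Always named were the catalytic subunits and the 9 pairs. In each comparison, called members with a group mean of at least 1 FPKM were named, up to 10 a direction (SMARCAD1, the eleventh, is a catalytic subunit). Where fewer than 6 were called, the smallest unadjusted p filled 6 places. Up to 5 partners a direction were named, and other names were chosen with values seen. The assignment of partners to complexes was also made with values seen. Alternatives were pseudocounts, filters, scalings, a robust prior, all libraries in 1 fit, a replicate block and each replicate left out.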

Additional observations from a re-analysis of the deposited data

How the results depend on the processing

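Members called against 8-cell embryos kept their direction in all alternatives, with the lost calls given above. Of those not called, INO80, ARID1A, ACTL6A, ARID3B and ARID5A (control morulae) and INO80, ARID1A, ARID3B, SMARCD2 and SMARCE1 (KDM6A morulae) changed sign under at least 1 scaling. Between KDM6A and control morulae, members called higher and lower went from 0 and 0 to 2 and 2 without KDM6A replicate 1, and ranged from 0 to 2 in each direction over the replicates left out. The count over all genes (16) was 25 with TPM, 28 with quantile normalization, 10 with all 9 libraries, 0 without a filter, 1 with the replicate block and 1 to 745 with a replicate left out. For KDM6A morulae against 8-cell embryos, 8 higher members became 5 with quantile normalization and 5 to 8 with a replicate left out (lower: 9, then 8 to 11). For control morulae the ranges were 6 to 9 higher and 9 to 11 lower. With a replicate left out, the genes tested were those of the full 6 libraries. The pair difference between stages reversed with a pseudocount of 0.1 for SMARCA5/SMARCA1 (0.29, from -0.62) and ACTL6A/ACTL6B (-0.087, from 0.22), pairs with a gene near 0. With a replicate left out, SMARCD1/SMARCD2 ranged from -0.084 to 0.48 between stages. Between KDM6A and control morulae, SMARCD1/SMARCD2 ranged from -0.286 to 0.438, SMARCA5/SMARCA1 from -0.00951 to 0.397 and CHD1/CHD2 from -0.0402 to 0.208. None of these pairs separated the groups except SMARCA5/SMARCA1 between stages.

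Same-numbered samples shared only a number: correlations of their deviations were -0.217, -0.242 and 0.160 between KDM6A and control morulae, and not every sample correlated best with its own number. With the replicate number as a block, members called higher and lower were 0 and 0 (KDM6A against control), 6 and 10 (control against 8-cell) and 7 and 9 (KDM6A against 8-cell). Unknown depth limits what can be said of the 7 members under 1 FPKM.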
